A study of Glycine max and Glycine soja with 189 samples.

Results

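*GmCOL5a* (Glyma07g10161) and *GmCOL5b* (Glyma13g33420) are a pair of soybean CONSTANS-like genes that arose as homeologs, the duplicate copies left by a whole-genome duplication. All rows of these loci in the deposited transcript table were taken. They numbered 2 transcripts of *GmCOL5a* (Glyma07g10161.1 and Glyma07g10161.2) and 3 of *GmCOL5b* (Glyma13g33420.3, Glyma13g33420.4 and Glyma13g33420.5), or 5 of 73320 transcripts and 2 of 54175 loci. Levels are RPKM, the reads on a transcript scaled by its length and by library depth, and a locus sum is the total RPKM over the transcripts of a locus.

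CONSTANS-like proteins carry zinc-binding B-box domains and a CCT domain that contacts DNA and partner proteins. In Arabidopsis, CONSTANS activates the florigen gene *FT* in leaves when light coincides with a high level of CONSTANS, which ties flowering to day length. *GmCOL5a* and *GmCOL5b* belong to the clade of this family in which the protein has a single B-box and a CCT domain.

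mRNA abundance was measured by RNA sequencing in 3 libraries for each of 63 combinations of 3 photoperiods, 7 genotypes and 3 time points. LD-SD plants had 21 days of LD followed by 5 days of SD, SD plants were grown with 10 hours of light, and LD plants were grown with 16 hours of light. By the sample records, all were sampled 26 days after planting. The methods of the study give 3 weeks after germination, and for shifted plants 3 weeks of LD and then 5 days of SD. Whether LD-SD plants were of the same age as the others is thus not settled. T1 was at 6:30, shortly before the lights came on, and T3 at 14:30, in the light under every photoperiod. T5 was at 22:30, shortly before lights off under LD and in the dark under SD and LD-SD. The genotypes comprised 4 near isogenic lines in the Clark background, namely L65-3366 (E1, E2, E3, E4, e5, E7), L66-432 (e1, e2, E3, E4, e5, E7), L74-441 (e1, E2, e3, E4, e5, E7) and L92-1195 (e1, E2, e3, E4, E5, E7). They further comprised the cultivar Williams 82 (for which only E2 is listed), *Glycine soja* (the wild relative, with no listed E alleles) and Clark (e1, E2, E3, E4, e5, E7). The E loci are maturity genes of soybean, with upper case letters for the alleles that delay flowering. Each near isogenic line stands for 1 introgressed line only, so its alleles cannot be told apart from linked donor sequence. The sample records name the first trifoliate leaf, whereas the methods of the study describe shoots above the cotyledon. Tissue markers were not examined, because the locus names of this annotation had no counterpart in the gene table used here. In such bulk tissue, fewer cells of a type and less RNA per cell cannot be told apart. Replicates are called biological, and the methods of the study describe shoots taken plant by plant. Whether each library stands for a single plant is not stated, so p-values measure the spread between these libraries.

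The libraries held 4.92 M to 18.2 M mapped reads (median 9.54 M). In 8 libraries, marker transcripts of the genotypes disagreed with the labelled line: replicate A at T1 under LD of Clark, Williams 82, L65-3366 and L66-432, and 4 LD-SD libraries of L74-441 (T3 B, T5 B and T5 C) and L66-432 (T5 B). These 8 correlated best with their own photoperiod and time point. The LD-SD library of L92-1195 at T5 whose replicate letter matches no sample record went against its photoperiod and time point: it correlated with its own condition at r = -0.43 and with LD-SD T3 at r = 0.56. Several of the comparisons that these 9 libraries enter are also given without them. Of 4 libraries not nearest to their own condition, the rest were of *G. soja* and were not counted as doubted. They were replicate C at T5 under LD (r = 0.36, and 0.42 with SD T5) and 2 under LD-SD. The latter were C at T1 (0.48, and 0.50 with SD T1) and A at T5 (0.49, and 0.64 with SD T5).

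Transcript lengths were taken as the smallest that turned the values into whole reads. With them, every value of the 5 transcripts was a whole number of reads within 0.05, as this choice largely ensures. These lengths were 1820 and 2224 bases for Glyma07g10161.1 and Glyma07g10161.2. They were 1938, 2072 and 1979 bases for Glyma13g33420.3, Glyma13g33420.4 and Glyma13g33420.5. A library held 16 to 5050 reads of Glyma07g10161.1 (median 379) and 15 to 5223 reads of Glyma07g10161.2 (median 382). The *GmCOL5b* transcripts were thinner, with 7 to 867 reads of Glyma13g33420.3 (median 80), 8 to 1030 of Glyma13g33420.4 (median 86) and 12 to 1130 of Glyma13g33420.5 (median 94). No library had 3 reads or fewer of any of the 5 transcripts. Both loci were measured most thinly at T3 under LD, where a library held 37 to 139 reads of *GmCOL5a* and 31 to 137 reads of *GmCOL5b*. How reads that match several transcripts were assigned is not given in the sources used here, so the division between transcripts of a locus, and between these similar homeologs, carries an uncertainty that the error of counting does not cover.

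*GmCOL5a* was most abundant at T1 under SD and least abundant at T3 under LD. Under LD-SD, its locus sum at T1 had a lowest, median and highest value of 146.7, 187 and 267 RPKM over 21 libraries. Under SD, these values were 226, 323 and 411 RPKM. Under LD, they were 17.5, 44.8 and 97.2 RPKM. Every LD-SD and SD library thus stood above every LD library at T1, while 5 of the 21 LD-SD libraries lay within the range of SD. The means were 199.8 ± 37.6 RPKM in LD-SD, 321 ± 49.4 RPKM in SD and 47.8 ± 18.5 RPKM in LD (SD of the spread, n = 21 each). Without the 4 doubted LD libraries, the LD mean was 49.2 ± 20.0 RPKM (n = 17).

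In the middle of the day, the contrast between photoperiods rested on the low level under LD. At T3, *GmCOL5a* had a lowest, median and highest value of 23.1, 35.1 and 65.1 RPKM in LD-SD, 20.5, 32.3 and 41.2 RPKM in SD, and 1.71, 3.90 and 7.01 RPKM in LD. No library of LD-SD or SD overlapped with LD, and 15 of 21 LD-SD libraries lay within the SD range. The means were 37.9 ± 11.2, 30.8 ± 6.15 and 4.07 ± 1.46 RPKM in LD-SD, SD and LD (n = 21 each).

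At T5 the order turned round. *GmCOL5a* had a lowest, median and highest value of 9.10, 15.9 and 127 RPKM in LD-SD, 10.3, 20.9 and 39.1 RPKM in SD, and 46.5, 77.6 and 105.7 RPKM in LD. Every SD library stood below every LD library. In LD-SD the same held for 20 libraries, and the remaining one was the L92-1195 library without a matching replicate letter, at 127 RPKM. The means were 22.7 ± 24.6, 22.3 ± 6.07 and 73.3 ± 16.4 RPKM in LD-SD, SD and LD (n = 21 each), and without that library the LD-SD mean was 17.5 ± 5.87 RPKM (n = 20).

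**Figure D1:**
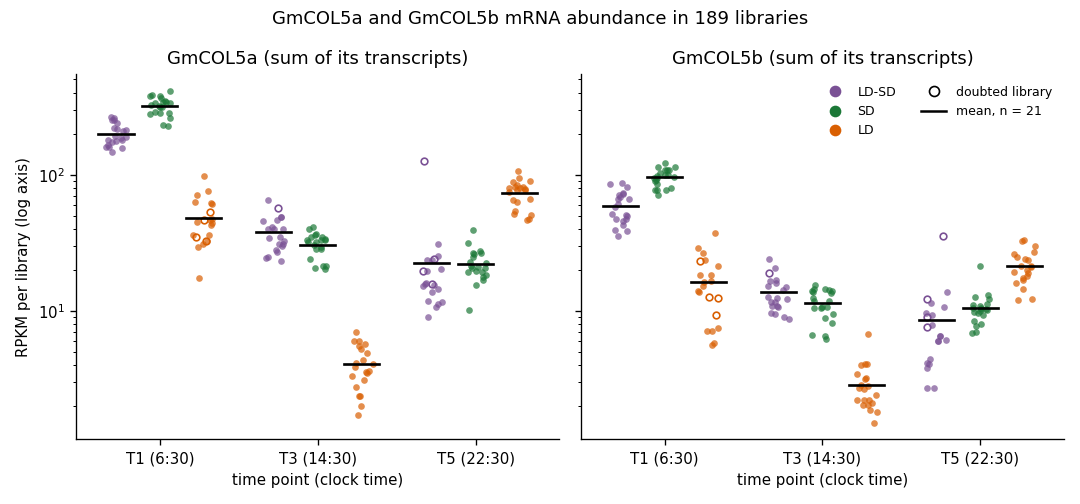
Locus sums of *GmCOL5a* (left) and *GmCOL5b* (right) in RPKM on a log axis against time point, with 1 point per library, open points for the 9 doubted libraries and a bar for the mean of 21 libraries. At T1 and T3 the LD mean lies lowest and at T5 it lies highest, while single points overlap in part. The *GmCOL5a* means at T5 are 22.7, 22.3 and 73.3 RPKM in LD-SD, SD and LD.

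*GmCOL5b* followed the same course at a lower level. At T1, its locus sum had a lowest, median and highest value of 35.7, 58.4 and 86.4 RPKM in LD-SD, 70.9, 96.8 and 121.6 RPKM in SD, and 5.67, 15.4 and 37.1 RPKM in LD. SD did not overlap with LD, and 1 LD-SD library fell within the LD range. At T3, the values were 8.70, 12.4 and 24.0 RPKM in LD-SD, 6.29, 11.8 and 15.6 RPKM in SD, and 1.51, 2.68 and 6.79 RPKM in LD. LD-SD did not overlap with LD, while 3 SD libraries lay within the LD range.

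At T5, *GmCOL5b* had 2.72, 6.59 and 35.4 RPKM as the lowest, median and highest value in LD-SD, 6.87, 10.3 and 21.3 RPKM in SD, and 11.97, 21.0 and 33.2 RPKM in LD. The highest LD-SD value again came from the L92-1195 library without a matching letter. Here 2 LD-SD libraries and 4 SD libraries lay within the LD range, so the homeolog with the lower level also had the less complete separation of photoperiods. The means of *GmCOL5b* in LD-SD, SD and LD were 59.1 ± 15.7, 95.5 ± 14.0 and 16.3 ± 8.34 RPKM at T1, 13.7 ± 4.06, 11.4 ± 2.86 and 2.88 ± 1.17 RPKM at T3, and 8.58 ± 6.90, 10.5 ± 2.99 and 21.5 ± 6.00 RPKM at T5 (n = 21 each). Without the L92-1195 library, the LD-SD mean at T5 was 7.24 ± 3.22 RPKM (n = 20).

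Ordered by the mean, the 9 conditions ran for *GmCOL5a* from SD T1 through LD-SD T1, LD T5, LD T1, LD-SD T3, SD T3, LD-SD T5 and SD T5 to LD T3. The order was the same for *GmCOL5b* except that SD T5 stood above LD-SD T5. Without the unlettered L92-1195 library the same was true of *GmCOL5a*, with 17.5 RPKM in LD-SD and 22.3 RPKM in SD at T5. For both genes, the mean ± SD intervals were separate between SD T1 and LD-SD T1 and between LD-SD T1 and LD T5. For *GmCOL5a* they were also separate between SD T5 and LD T3. All the remaining neighbours in either order overlapped within 1 SD.

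Whether day length changed the level at each time point was tested by SD minus LD on the log2(RPKM + 1) scale, which understates the change of low values. The fit was made with limma over all 43883 loci with a mean of at least 0.1 RPKM, with Benjamini-Hochberg adjustment over these loci and a threshold of 0.05. At T1, *GmCOL5a* was higher in SD by 2.80 (standard error 0.11, adjusted p = 1.54e-40) and *GmCOL5b* by 2.63 (standard error 0.13, adjusted p = 2.94e-33). At T3, *GmCOL5a* was higher in SD by 2.68 (adjusted p = 2.73e-39) and *GmCOL5b* by 1.68 (adjusted p = 4.72e-21, limma). At T5, the differences were negative, at -1.68 for *GmCOL5a* (adjusted p = 6.48e-25) and -0.95 for *GmCOL5b* (adjusted p = 8.17e-10, limma).

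Photoperiod reached a large part of the transcriptome, and the calls of both loci stand beside that background. In SD minus LD, 33.0% of all loci passed as higher at T1, 21.6% as higher at T3 and 21.5% as lower at T5. Fewer loci had 21 SD libraries entirely above the 21 LD libraries, at 3.51% at T1 and 3.19% at T3, and 0.753% had them entirely below at T5. *GmCOL5a* was separated in this way at all 3 time points and *GmCOL5b* at T1 only. By size, 38 of the 43883 loci had a larger positive difference at T1 than *GmCOL5a* and 52 had a larger one than *GmCOL5b*. At T3 these counts were 332 and 1066, and at T5 233 and 1057 loci had a more negative difference. Over all loci, the median difference came to 0.01 (T1), -0.11 (T3) and 0.05 (T5).

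As ratios of mean RPKM, *GmCOL5a* in SD stood at 6.72 times its LD level at T1, 7.56 times at T3 and 0.305 times at T5. *GmCOL5b* stood at 5.88 times its LD level at T1, 3.95 times at T3 and 0.491 times at T5. Whether the difference changed between the time points was tested by the interaction, an F-test in the same limma fit. It passed for *GmCOL5a* (adjusted p = 2.36e-48) and *GmCOL5b* (adjusted p = 1.55e-32), as it did for 79.6% of all loci. The same test on LD-SD minus LD and on LD-SD minus SD passed for 72.0% and 55.3% of all loci, and for both genes.

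The shift experiment asked what 5 days of SD did to plants raised in LD. The LD libraries are those already set against SD, so these values stand beside the ones above and are no independent repeat. Compared with LD, *GmCOL5a* in LD-SD was higher by 2.11 at T1 (standard error 0.13, adjusted p = 6.25e-32) and 2.95 at T3 (adjusted p = 6.02e-45), and lower at T5 with a difference of -1.90 (adjusted p = 3.95e-27, limma over 43826 loci). For *GmCOL5b*, the log2 differences were 1.92 at T1, 1.93 at T3 and -1.40 at T5, all past the threshold with a standard error of 0.14. Among all loci, 31.8% passed as higher at T1, 22.3% as higher at T3 and 15.5% as lower at T5. Without overlap between the 21 LD-SD and the 21 LD libraries, the shares were 2.17% higher at T1, 1.74% higher at T3 and 0.0730% lower at T5. *GmCOL5a* was separated at T1 and T3 and *GmCOL5b* at T3. At T5, 53 loci had a more negative difference than *GmCOL5a* and 133 had one more negative than *GmCOL5b*. Leaving out the unlettered L92-1195 library gave -2.05 for *GmCOL5a* and -1.50 for *GmCOL5b* at T5, and leaving out all 9 doubted libraries gave -2.14 and -1.64.

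The LD-SD plants were also set against plants kept in SD throughout. This comparison shares its LD-SD libraries with the one before, so the agreement of signs between them is no separate evidence. At T1, *GmCOL5a* was lower in LD-SD with a log2 difference of -0.69 (standard error 0.13, adjusted p = 6.76e-06) and *GmCOL5b* with -0.72 (standard error 0.14, adjusted p = 1.06e-05, limma). The LD-SD means were 0.622 and 0.618 times the SD means. Of all loci, 17.0% passed as lower in this comparison at T1, so the calls themselves were common.

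At T3, the differences between LD-SD and SD did not pass, at 0.27 for *GmCOL5a* (adjusted p = 0.0683) and 0.24 for *GmCOL5b* (adjusted p = 0.122, limma), where 34.8% of all loci passed as higher. The *GmCOL5a* value passed without the unlettered library, which is not in this contrast and enters only the shared variance (0.27, adjusted p = 0.0316), and without all doubted libraries (0.25, adjusted p = 0.0489). At T5, *GmCOL5b* was lower in LD-SD at -0.45 (adjusted p = 0.00370), where 30.9% of all loci passed as lower, and *GmCOL5a* gave -0.22 (adjusted p = 0.148, limma). Without the unlettered library, the value of *GmCOL5a* at T5 was -0.36 and passed (adjusted p = 0.00464), and that of *GmCOL5b* was -0.55. Without replicate A, *GmCOL5b* at T5 gave -0.27 and did not pass (adjusted p = 0.190).

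Within each photoperiod, the mRNA abundance of both genes depended on the time point. The limma F-test over T1, T3 and T5 gave adjusted p = 7.10e-52 in LD-SD, 1.27e-53 in SD and 2.54e-53 in LD for *GmCOL5a*, and 1.45e-41, 5.16e-42 and 3.67e-33 for *GmCOL5b*. It passed for 78.3%, 84.8% and 79.1% of all loci in LD-SD, SD and LD. In each of the 7 genotypes, the LD-SD and the SD mean of both genes was highest at T1 among these time points. In LD, *GmCOL5a* had its highest mean at T5 in all 7 genotypes and *GmCOL5b* in 5 of 7, with Williams 82 and L66-432 highest at T1. Both of these have a doubted library at T1 under LD. Without the doubted libraries, *GmCOL5b* was highest at T1 in Williams 82 (22.1 RPKM at T1 and 17.5 RPKM at T5) and L65-3366 (25.1 and 24.0 RPKM), and L66-432 had 18.6 RPKM at T1 and 19.7 RPKM at T5. All 7 genotypes had the lowest mean of both genes at T3 under LD.

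Among the sequenced time points, the LD mean of both genes was highest at T5, and its excess over T1 was modest. The hours between these time points were not sequenced, so a peak in the LD night, between T5 and T1, could not be seen. In LD, T1 minus T5 was -0.67 for *GmCOL5a* (adjusted p = 8.00e-08) and -0.50 for *GmCOL5b* (adjusted p = 0.000481, limma), and 49.5% of all loci passed as lower. In SD, T5 minus T3 was -0.46 for *GmCOL5a* (adjusted p = 9.40e-05), where 18.6% of all loci passed as lower, and -0.09 for *GmCOL5b*, which did not pass (adjusted p = 0.523, limma). In LD-SD, T5 minus T3 was -0.95 for *GmCOL5a* (adjusted p = 8.74e-11) and -0.79 for *GmCOL5b* (adjusted p = 2.21e-07, limma), with 20.7% of all loci passing as lower. The highest mean among T1, T3 and T5 was 8.81, 14.4 and 18.0 times the lowest for *GmCOL5a* in LD-SD, SD and LD. For *GmCOL5b* it was 6.88, 9.06 and 7.46 times the lowest. These ratios cover the sequenced time points only and need not give the full range of a day.

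In the deposited values, the transcripts of a locus moved together. At T1, Glyma07g10161.1 averaged 108.8 ± 20.1 RPKM in LD-SD, 174 ± 26.9 RPKM in SD and 26.1 ± 9.92 RPKM in LD, and Glyma07g10161.2 averaged 91.0 ± 17.7, 147 ± 22.8 and 21.7 ± 8.68 RPKM (n = 21 each). At T3 under LD, the lowest point of the series, Glyma07g10161.1 ranged from 1.14 to 3.70 RPKM and Glyma07g10161.2 from 0.465 to 3.33 RPKM. At T5, Glyma07g10161.1 averaged 12.3 ± 12.8 RPKM in LD-SD, 12.6 ± 3.44 RPKM in SD and 40.2 ± 9.37 RPKM in LD. Both transcripts thus showed the course of the locus sum, including its turn between T1 and T5.

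The same held for *GmCOL5b*, with its 3 transcripts in the same order of level in every condition except T3 under LD. At T1 under SD, Glyma13g33420.3, Glyma13g33420.4 and Glyma13g33420.5 averaged 29.0 ± 4.23, 30.9 ± 4.91 and 35.6 ± 5.37 RPKM, and under LD they averaged 4.92 ± 2.43, 5.36 ± 2.70 and 5.97 ± 3.34 RPKM (n = 21 each). At T3 under LD, the means of Glyma13g33420.3 and Glyma13g33420.4 were 0.893 and 0.881 RPKM. At T5 under LD, they averaged 6.42 ± 2.05, 7.10 ± 1.90 and 7.94 ± 2.21 RPKM (n = 21 each). In limma over 61237 transcripts, SD minus LD passed for all 5 transcripts as higher at T1 and T3 and as lower at T5, beside 33.0%, 20.3% and 20.4% of all transcripts. The log2 differences of the *GmCOL5a* transcripts were 2.77 and 2.78 at T1, 2.47 and 2.42 at T3, and -1.60 and -1.68 at T5. Those of Glyma13g33420.3, Glyma13g33420.4 and Glyma13g33420.5 were 2.45, 2.44 and 2.52 at T1, 1.24, 1.30 and 1.30 at T3, and -0.80, -0.88 and -0.84 at T5. In LD-SD minus LD, all 5 passed again in these directions, beside 31.7%, 21.6% and 14.4% of all transcripts. In LD-SD minus SD, 5 of 5 passed as lower at T1, with differences from -0.71 to -0.68, 0 of 5 at T3 and the 3 of *GmCOL5b* as lower at T5, beside 15.3% lower at T1, 33.7% higher at T3 and 29.7% lower at T5. The values at T5 were -0.38, -0.30 and -0.37 for Glyma13g33420.3, Glyma13g33420.4 and Glyma13g33420.5, against -0.26 and -0.15 for Glyma07g10161.1 and Glyma07g10161.2.

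As counted by the authors, the mean share of each transcript in the reads of its locus differed little between conditions. Over all libraries, 49.5% of the 299890 reads of *GmCOL5a* fell on Glyma07g10161.1 and 50.5% on Glyma07g10161.2. Of the 94261 reads of *GmCOL5b*, 29.4% fell on Glyma13g33420.3, 33.7% on Glyma13g33420.4 and 36.9% on Glyma13g33420.5. Between all libraries, the chi-square of these shares per degree of freedom was 1.19 for *GmCOL5a* and 1.04 for *GmCOL5b*, where counting of reads alone gives 1. Within single conditions it ran from 0.485 to 1.71 for *GmCOL5a* (highest at T1 under SD) and from 0.650 to 1.49 for *GmCOL5b* (highest at T3 under LD-SD). By condition, the mean share of Glyma07g10161.1 ran from 49.2% at T1 under SD to 51.5% at T5 under SD. The spread was widest at T3 under LD, at 51.3% ± 6.95 (SD, n = 21), where the reads were fewest.

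Isoform usage was tested with the diffSplice function of limma, which sets the log2 difference of a transcript against that of the other transcripts of its locus. Of 45 comparisons of the 5 transcripts between photoperiods, 0 passed, beside 0.117% of all such tests, and 0 had an unadjusted p below 0.05. The differences lay between -0.11 and 0.11, with standard errors of 0.144 to 0.176. Between time points, 0 of 45 passed, beside 0.235% of all such tests, and 0 had an unadjusted p below 0.05, with differences between -0.13 and 0.10. A second test, chosen after seeing the data, was a two-sided permutation of the read shares between photoperiods and gave 0 of 36 comparisons past the threshold and 2 with an unadjusted p below 0.05. Its smallest adjusted p was 0.0641, for Glyma07g10161.1 in SD minus LD at T5 (51.5% in SD and 49.8% in LD, n = 21 each). Over the 36 comparisons the difference in share lay between -2.40 and 1.79 percentage points. The smallest unadjusted p of diffSplice was 0.533 between photoperiods and 0.363 between time points. diffSplice takes the transcripts of a locus as independent, although they moved together, so its standard errors may be too large. Its counts of 0 thus cannot show that the shares were unchanged. Each comparison of the 2 *GmCOL5a* transcripts is also counted from both sides. Because the assignment of reads shared by transcripts is not given, these tests may be unable to see a change in isoform use.

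**Figure D2:**
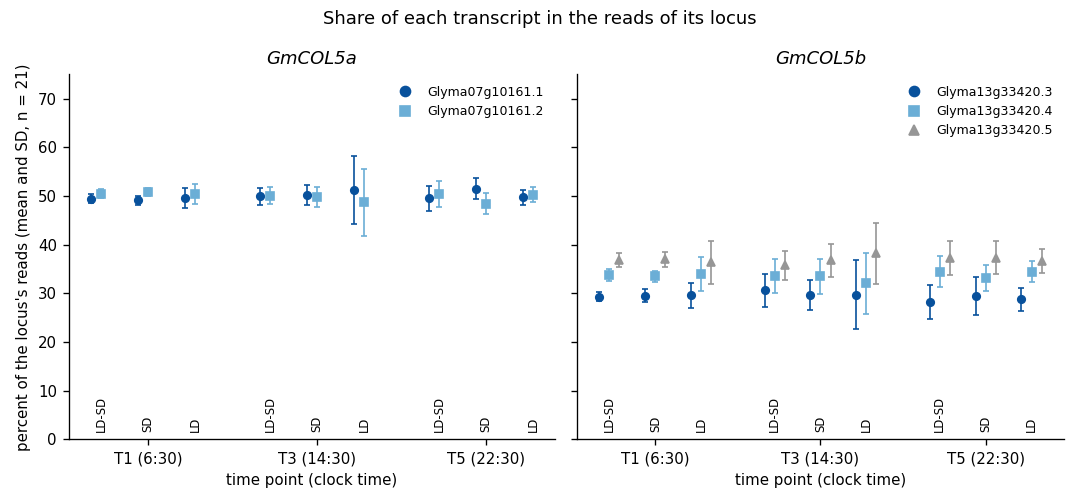
Percent of the reads of a locus that fell on each transcript (mean and SD over 21 libraries) for *GmCOL5a* (left) and *GmCOL5b* (right), by time point and, within it, LD-SD, SD and LD. The *GmCOL5a* transcripts lie near 49.5% and 50.5% and the *GmCOL5b* transcripts near 29.4%, 33.7% and 36.9% in every condition, with the widest bars at T3 under LD.

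*GmCOL5a* was more abundant per length than *GmCOL5b* in 185 libraries, all but 4, with a ratio of the locus sums from 0.831 to 5.61 (median 2.92). These 4 were all at T3 under LD, where 17 of 21 libraries had more *GmCOL5a*. In LD-SD, the ratio averaged 3.47 ± 0.449 at T1, 2.82 ± 0.566 at T3 and 2.66 ± 0.671 at T5. In SD it was 3.36 ± 0.192, 2.78 ± 0.434 and 2.14 ± 0.381, and in LD it was 3.26 ± 1.02, 1.48 ± 0.447 and 3.54 ± 0.739 (n = 21 each). The lowest mean ratio was thus that of T3 under LD. How reads that match both homeologs were assigned is not given, and the ratio carries that uncertainty.

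The ratio on the log2(RPKM + 1) scale was compared between photoperiods by two-sided permutation tests over 9 comparisons. At T3, it was higher by 0.997 in SD (standard error 0.09) and by 1.02 in LD-SD (standard error 0.10) than in LD, each with the smallest p that 100000 permutations can give, 1e-05 (adjusted p = 3e-05). At T5, it was lower than in LD, with a difference of -0.73 in SD (permutation, adjusted p = 3e-05) and -0.50 in LD-SD (permutation, adjusted p = 9.00e-05). At T1, the differences of 0.17 in SD (permutation, adjusted p = 0.0666) and 0.20 in LD-SD (permutation, adjusted p = 0.0525) against LD did not pass. Against SD, LD-SD was higher at T5 by 0.23 (permutation, adjusted p = 0.0218), or by 0.20 without the unlettered library (permutation, adjusted p = 0.0416), a call that was lost without replicate A (0.12) or C (0.22), and gave 0.03 and 0.02 at T1 and T3, which did not pass (permutation, adjusted p = 0.576 and 0.765). The photoperiod differences of the 2 genes hence differed in size at T3 and T5. These tests took the libraries as independent, although same-lettered libraries of a condition tended to deviate together. No version with 1 mean per letter was run, so the p-values may be too small.

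**Figure D3:**
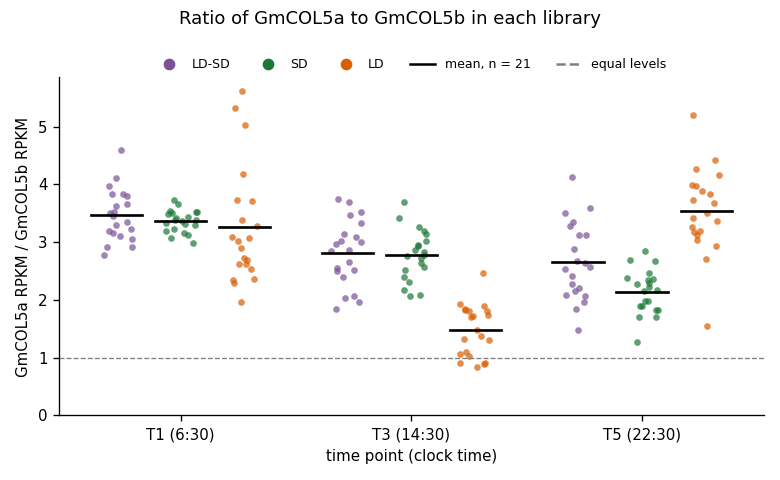
Ratio of *GmCOL5a* RPKM to *GmCOL5b* RPKM (locus sums) in each library against time point, with 1 point per library, a bar for the mean of 21 libraries and a dashed line at equal levels. At T3 the LD mean lies lowest, with a ratio of 1.48 against 2.82 in LD-SD and 2.78 in SD, while single points overlap in part.

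The homeologs varied together. Over the 63 groups, the Pearson correlation of their mean log2(RPKM + 1) was 0.985, and no other locus among 33814 with a mean of at least 1 RPKM had a correlation with either gene as high as this. Within groups, the deviations of the libraries from their group means correlated at 0.786. The values of both genes come from the same libraries and share their depth and tissue. How reads that match both homeologs were assigned is not given, and its part in these correlations was not tested. The correlations are therefore descriptions.

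Next in likeness to *GmCOL5a* stood Glyma07g06410 with a correlation of 0.980 and Glyma05g36710 with 0.979, and to *GmCOL5b* Glyma07g06410 with 0.962 and Glyma17g07050 with 0.961. The files do not pair these loci with gene names. *GmCOL1b* and *GmCOL1a*, the Clade I homologs, ranked 93 and 135 in likeness to *GmCOL5a*, with correlations of 0.909 and 0.896.

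Across genotypes the photoperiod response kept its direction. SD minus LD passed in all 7 genotypes for both genes as higher at T1 and T3, beside 14.1% and 10.3% of all tests of single genotypes over all loci. At T5 it passed as lower in 7 genotypes for *GmCOL5a* and in 3 (Clark, L65-3366 and L74-441) for *GmCOL5b*, beside 6.10%. With 3 libraries against 3, the log2 difference of *GmCOL5a* ranged from 2.47 in L66-432 to 3.33 in Clark at T1, with extremes of 2.23 (*G. soja*) and 3.19 (L74-441) at T3, and -2.09 (Clark) and -1.13 (*G. soja*) at T5 (standard error 0.29). For *GmCOL5b* it ranged from 2.13 in L66-432 to 3.39 in Clark at T1, with extremes of 1.26 (L66-432) and 2.21 (L74-441) at T3, and -1.43 (Clark) and -0.58 (Williams 82) at T5 (standard error 0.34). Without the doubted libraries, the smallest difference at T1 was that of L65-3366 for both genes, at 2.35 for *GmCOL5a* and 2.01 for *GmCOL5b*. Whether the response differed between genotypes was tested directly. The F-test of genotype by SD minus LD gave adjusted p = 0.903 for *GmCOL5a* and 0.931 for *GmCOL5b* (limma), and 1.52% of all loci passed it.

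Clark had the greatest SD minus LD difference of both genes at T1. There, *GmCOL5a* had 288, 377 and 411 RPKM in SD, against 32.4, 29.7 and 42.5 RPKM in LD. *GmCOL5b* had 77.2, 114.6 and 121.6 RPKM in SD, against 12.7, 7.11 and 7.57 RPKM in LD. The first LD value of each is that of the doubted replicate A. At T5, *GmCOL5a* had 19.5, 19.6 and 19.2 RPKM in SD Clark plants, against 89.0, 89.7 and 79.0 RPKM in LD. In *G. soja*, the T5 values were 20.8, 24.9 and 20.7 RPKM in SD, against 50.7, 51.3 and 46.5 RPKM in LD, so that SD was close to Clark and LD was lower. The last LD value is that of the library that correlated better with SD T5 (r = 0.42) than with LD T5 (r = 0.36).

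**Figure D4:**
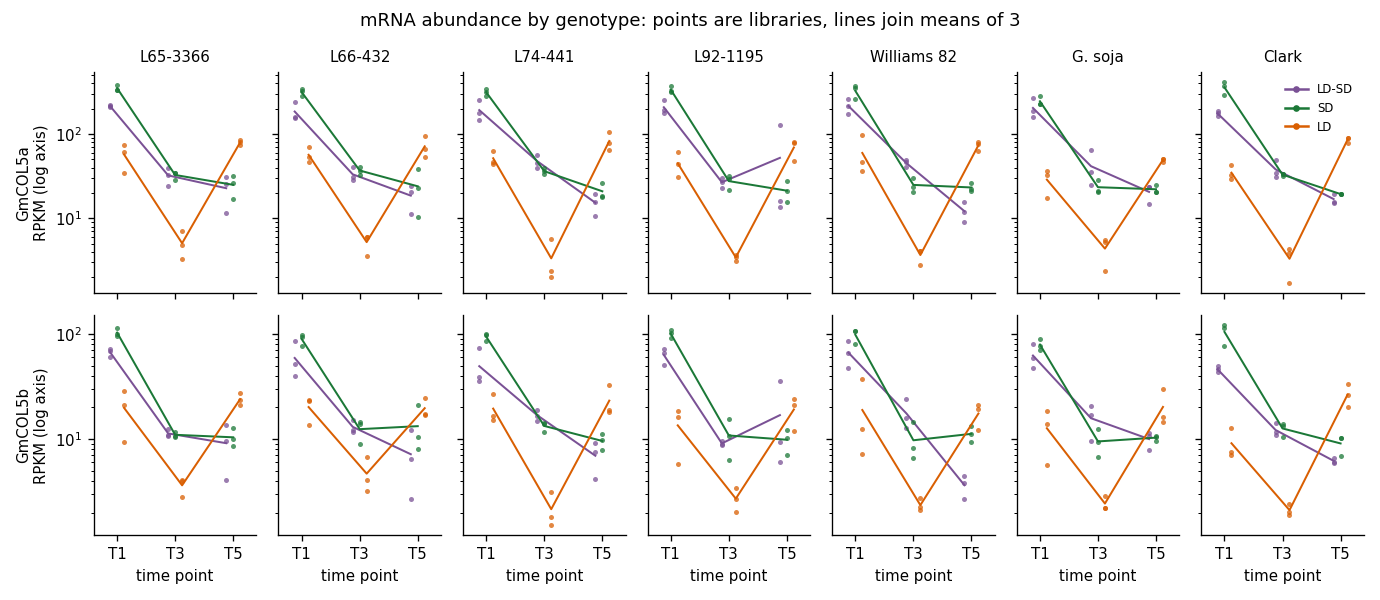
RPKM of *GmCOL5a* (top) and *GmCOL5b* (bottom) on a log axis against time point in the 7 genotypes, with points for libraries and lines through the means of 3 in LD-SD, SD and LD. In every genotype LD dips at T3, and the raised LD-SD mean of L92-1195 at T5 (52.3 RPKM for *GmCOL5a*) rests on 1 library.

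Genotypes were compared within each photoperiod by an F-test over T1, T3 and T5. In LD-SD, it passed for *GmCOL5b* (adjusted p = 0.0458) and not for *GmCOL5a* (adjusted p = 0.208). In SD, neither gene passed (adjusted p = 0.860 for *GmCOL5a* and 1 for *GmCOL5b*, limma). In LD, it passed for *GmCOL5a* (adjusted p = 0.0416) and not for *GmCOL5b* (adjusted p = 0.156, limma). Of all loci, 28.5%, 16.8% and 19.7% passed in LD-SD, SD and LD. Without *G. soja*, the *GmCOL5a* call in LD was lost (adjusted p = 1), and it was also lost without each replicate letter (adjusted p = 0.0868 to 0.405, limma). The *GmCOL5b* call in LD-SD was lost without the unlettered L92-1195 library (adjusted p = 0.142) but not without all 9 doubted libraries (adjusted p = 0.0496, limma). In LD, *GmCOL5b* passed without the doubted libraries (adjusted p = 0.0481, limma).

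The lines behind these tests can be seen in single groups. At T5 in LD, *GmCOL5a* averaged 49.5 ± 2.58 RPKM in *G. soja* and 85.9 ± 6.01 RPKM in Clark (n = 3 each), a log2 difference of -0.78 that did not pass (adjusted p = 0.0578, limma). Replicate C of this *G. soja* group correlated better with SD T5 than with LD T5. In LD-SD at T5, L92-1195 had 9.33, 6.01 and 35.4 RPKM of *GmCOL5b*, the last in the unlettered library, against 6.08, 6.59 and 5.99 RPKM in Clark. Among 18 contrasts of a genotype minus Clark in each photoperiod, 0 passed for either locus sum in LD-SD, SD or LD, beside 2.63%, 1.77% and 2.22% of all such tests. No share over all loci is given here at an unadjusted p below 0.05. At that threshold there were 1, 0 and 4 for *GmCOL5a* and 1, 0 and 5 for *GmCOL5b* in LD-SD, SD and LD (limma). Those of *GmCOL5b* at T1 in LD were 1.07 in L66-432, 1.02 in L74-441, 0.95 in L65-3366 and 0.71 in Williams 82, all above Clark, and 3 of these 4 lines have a doubted library there, as Clark has. Without the doubted libraries, L65-3366 minus Clark was 1.63 at T1 in LD and did not pass (adjusted p = 0.0675, limma). Of the single transcripts, Glyma13g33420.4 passed in that contrast only without the doubted libraries (1.55, adjusted p = 0.0298), and Glyma07g10161.1 passed as lower in *G. soja* at T5 in LD with all libraries (-0.82, adjusted p = 0.0353, limma).

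In the shift experiment, LD-SD minus LD passed as higher in all 7 genotypes for both genes at T1 and T3, beside 12.5% and 8.18% of all tests of single genotypes. At T5 it passed as lower in 6 genotypes for *GmCOL5a*, all but L92-1195 (-1.11, adjusted p = 0.0519), and in 5 for *GmCOL5b*, all but L92-1195 and *G. soja*, beside 1.94%. Without the unlettered library, it passed in all 7 for *GmCOL5a*. At T1, the log2 difference of *GmCOL5a* was smallest in L66-432 (1.68) and greatest in *G. soja* (2.81), and at T3 it was smallest in L66-432 (2.47) and greatest in L74-441 (3.56) (standard error 0.34, limma). At T5 it was most negative in Williams 82, at -2.53 for *GmCOL5a* and -1.98 for *GmCOL5b*. Without the 9 doubted libraries, it was most negative in L74-441, at -2.82 and -2.19, where 1 LD-SD library was left, and the smallest *GmCOL5a* difference at T1 was 1.64 in L65-3366. The F-test of genotype by LD-SD minus LD did not pass for *GmCOL5a* (adjusted p = 0.350) or *GmCOL5b* (adjusted p = 0.342, limma), and 1.53% of all loci passed it. It passed for *GmCOL5a* with the replicate letter as a block (adjusted p = 0.0187) or as a random effect (adjusted p = 0.0426, limma).

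Between LD-SD and SD in single genotypes, *GmCOL5b* passed as lower in Clark at T1 (-1.14, adjusted p = 0.0427) and in Williams 82 at T5 (-1.40, adjusted p = 0.00696, limma), beside 1.35% and 5.11% of all such tests (8.33% as higher at T3), while *GmCOL5a* passed in 0 of 21. Without the unlettered library, *GmCOL5a* passed in 3 of 21, as lower in Clark at T1 (-1.01), as higher in Williams 82 at T3 (0.84) and as lower in Williams 82 at T5 (-0.91). With all libraries and at an unadjusted p below 0.05, 8 of these 21 differences of *GmCOL5a* counted. No share over all loci is given here for that threshold or for the fit without the unlettered library. In LD-SD Clark plants at T1, *GmCOL5b* had 46.0, 49.5 and 43.0 RPKM, against 77.2, 114.6 and 121.6 RPKM in SD. In LD-SD Williams 82 plants at T5, it had 3.80, 2.72 and 4.43 RPKM, against 13.2, 11.1 and 9.36 RPKM in SD. The F-test of genotype by LD-SD minus SD did not pass for either gene (adjusted p = 0.901 and 0.782 for *GmCOL5a* and *GmCOL5b*, limma), with 0.819% of all loci passing.

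**Figure D5:**
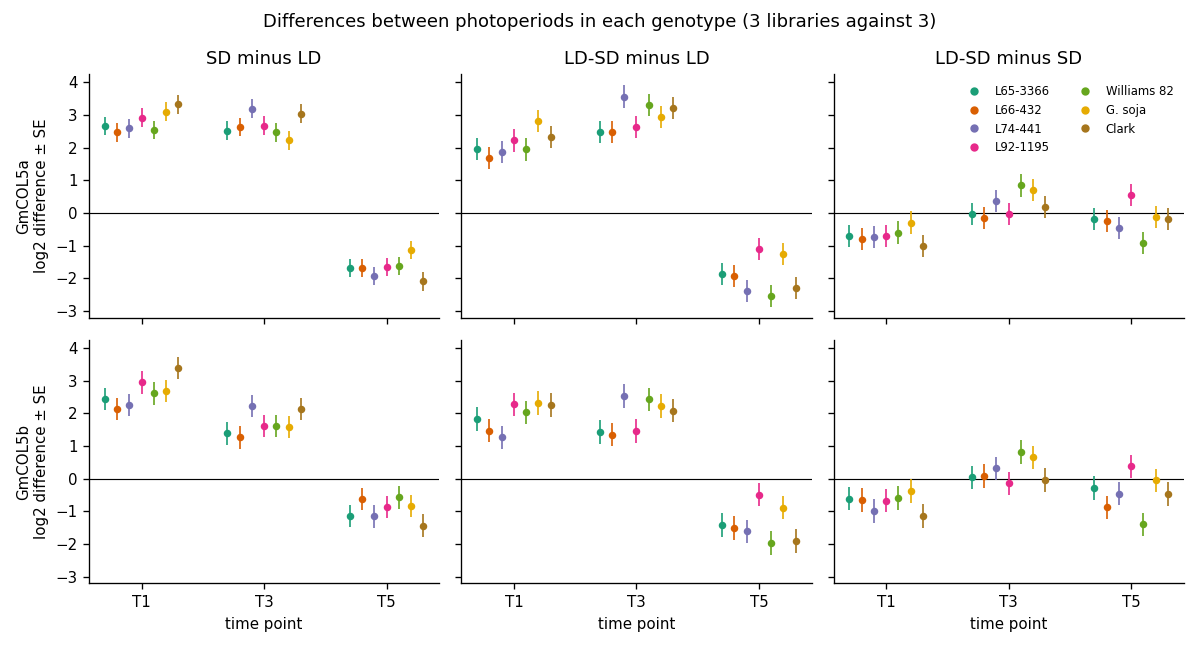
Log2 difference (log2(RPKM + 1) scale, with its standard error) of SD minus LD, LD-SD minus LD and LD-SD minus SD for *GmCOL5a* (top) and *GmCOL5b* (bottom) in each of 7 genotypes at each time point, 3 libraries against 3. In the comparisons with LD, every genotype lies above 0 at T1 and T3 and below 0 at T5, as in the *GmCOL5a* range of -2.09 to -1.13 for SD minus LD at T5.

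Other genes of the photoperiod pathway were taken from a list of 10 loci that the study names: the Clade I homologs *GmCOL1a*, *GmCOL1b*, *GmCOL2a* and *GmCOL2b*, the florigen homologs *GmFT2a* and *GmFT5a*, the flowering repressor *E1*, the GIGANTEA homolog *E2* and the phytochrome A genes *E3* and *E4*. In SD minus LD, 7 of 10 were higher and 3 lower at T1, 5 higher and 3 lower at T3, and 5 higher and 2 lower at T5. Of all loci, 33.0% were higher and 30.5% lower at T1, 21.6% higher and 44.6% lower at T3, and 36.2% higher and 21.5% lower at T5. The list had a median log2 difference of 1.05 (T1), 0.23 (T3) and 0.16 (T5), beside 0.01, -0.11 and 0.05 over all loci. *GmCOL1a* turned like the *GmCOL5* pair, at 2.23 at T1 (284 RPKM in SD and 61.9 RPKM in LD) and -3.48 at T5 (6.40 RPKM in SD and 81.7 RPKM in LD). *GmCOL1b* gave 2.38 at T1 and -3.85 at T5. At T3, by contrast in size, *GmCOL1a* differed by 0.41 and *GmCOL1b* by 1.01, beside 2.68 for *GmCOL5a*. These differences between genes were not tested.

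The florigen homologs were higher in SD at every time point. *GmFT2a* differed by 4.27, 4.89 and 3.82 at T1, T3 and T5, and *GmFT5a* by 5.08, 3.81 and 3.28. *E1* was lower in SD at T1 by -1.05 (0.0197 RPKM in SD and 1.22 RPKM in LD) and at T3 by -1.08 (0.0107 and 1.23 RPKM). *GmCOL2a* and *GmCOL2b* were low as well, with a highest mean of 1.89 RPKM (*GmCOL2b* at T3 in LD). At such levels the log2(RPKM + 1) difference depends on the added 1 and is no fold change. *E2* was lower at T1 by -4.55 (0.912 RPKM in SD and 44.2 RPKM in LD). In LD-SD minus LD, 6 of the 10 were higher and 3 lower at T1, 6 higher and 4 lower at T3, and 4 higher and 2 lower at T5. Of all loci, 31.8% were higher and 28.6% lower at T1, 22.3% higher and 33.5% lower at T3, and 18.9% higher and 15.5% lower at T5. In LD-SD minus SD at T1, 6 were lower and 0 higher, beside 17.0% and 14.3% of all loci, among them *GmFT2a* at -2.30 and *GmFT5a* at -1.98, while *GmCOL1a* (-0.24, adjusted p = 0.125) and *GmCOL1b* (-0.17, adjusted p = 0.332, limma) did not pass.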

How the data were processed

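Reads were mapped by the authors with Bowtie to the Williams 82 transcriptome, counted with an in-house script and deposited as RPKM per transcript. Versions and build are not given in the sources used here. All 73320 transcripts were read, 1 infinite transcript was left out, and transcripts were summed per locus. Mapped reads per library were recovered from the steps of the low values, and limit precision by counting error only.

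Features averaging 0.1 RPKM or more entered limma 3.58.1 (R 4.3.3, trended variance) as log2(RPKM + 1), with groups as terms: SD and LD libraries in 1 fit, and all libraries for LD-SD. Benjamini-Hochberg adjustment ran over all features. Shares and ratios were tested with 100000 permutations in numpy 2.4.6. In data simulated for SD minus LD at T1 over 43883 loci, 99% of 2-fold and 100% of 4-fold changes were recovered, and 6.13% of calls were unchanged loci. The simulated noise was independent between libraries and 200 loci were changed, so these rates may not hold for the real libraries. Named genes were the members, 10 loci named by the study and the loci most correlated with the members. The members and lists were chosen with earlier results of these data known. Replicate letters were not taken to pair the samples in the main fits. Not every same-lettered pair correlated above 0.1 (387 of 561 did), which does not show that the letters can be ignored. Same-lettered libraries of a condition correlated at a mean of 0.196, against -0.00332 for the same letter in other photoperiods or time points. Other letters of a condition gave -0.0964 (218 of 1122 above 0.1), a value that taking deviations from group means by itself pushes below 0. The column without a sample record was used by its group. Alternatives covered the pseudocount, filters, scaling, replicates, letters as a block, samples, genotypes, doubted libraries (limits set after seeing the data) and the variance prior.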

Additional observations from a re-analysis of the deposited data

Results flagged for a closer look

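The difference between photoperiods changed with the time point for both genes, by the limma F-test over T1, T3 and T5. For *GmCOL5a*, adjusted p was 2.36e-48 for SD minus LD, 4.50e-54 for LD-SD minus LD and 1.59e-05 for LD-SD minus SD. For *GmCOL5b*, it was 1.55e-32, 2.96e-38 and 2.62e-05 in the same comparisons. In both comparisons with LD the sign turned between T3 and T5. Of all loci, 79.6%, 72.0% and 55.3% passed these tests.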

How the results depend on the processing

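Of 848 repeats of a photoperiod difference past the threshold under an alternative, 836 passed in the same direction, 12 no longer passed and 0 reversed. LD-SD minus SD was less settled. For *GmCOL5a* at T3 (0.27) and T5 (-0.22), it passed with the replicate block (0.27 and -0.36), without the doubted libraries (0.25 and -0.46) and without the unlettered library (0.27 and -0.36), the last an alternative chosen after seeing the data, and at T5 with the block as a random effect (-0.36). With 1 mean per letter, both did not pass (adjusted p = 0.210 and 0.114, limma). For *GmCOL5b* at T5 (-0.45), the replicates left out in turn gave -0.53 to -0.27, and -0.27 did not pass. The adjusted p of genotypes within LD for *GmCOL5a* (0.0416) was 0.0535 with a pseudocount of 0.1, 0.0794 with median-of-ratios scaling, 0.0868 to 0.405 without a replicate, 0.238 with all samples in the fit and 1 without *Glycine soja*. Within LD, *GmCOL5b* (0.156) had 0.0494 with the replicate block and 0.0481 without the doubted libraries. Within LD-SD, *GmCOL5b* (0.0458) had 0.0537 with no filter, 0.124 to 0.184 without a replicate, 0.164 with other samples in the fit, 0.187 without *Glycine soja* and 0.142 without the unlettered library. Genotype by LD-SD minus LD for *GmCOL5a* (0.350) had 0.0187 with the replicate block and 0.0426 with it as a random effect. For the log2 ratio of *GmCOL5a* to *GmCOL5b* at T1, single transcripts gave 0.34 in SD minus LD and 0.34 in LD-SD minus LD, and both passed. Leaving out a replicate gave 0.0938 to 0.27 and 0.0736 to 0.34, which passed without C only. In LD-SD minus SD, leaving out a replicate gave ratio differences of -0.0644 to 0.0783 at T1 and -0.0441 to 0.10 at T3, both changing sign, and 0.12 to 0.39 at T5, where 0.12 (without A) and 0.22 (without C) did not pass. The cause was not tested. Same-lettered libraries of a condition tended to deviate together, so standard errors that treat them as independent may be too small. The permutation tests of the ratio treat them as independent as well, and had no version with 1 mean per letter. With 1 mean per letter, adjusted p in limma was 8.31e-09 for *GmCOL5a* and 1.22e-08 for *GmCOL5b* in SD minus LD at T1. Isoform shares had their widest spread at T3 under LD, where reads were fewest.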
